A study of Mus musculus with 36 samples.

Results

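Kidneys that had lost the clock gene Bmal1 (Arntl) in their tubule cells were compared after streptozotocin, which makes mice diabetic, and after its vehicle. The comparison took 18 of the 36 RNA-seq libraries of the study: 9 STZ-treated cKOt kidneys against 9 PBS-treated cKOt kidneys. cKOt mice carried Bmal1 lox/lox together with Pax8-rtTA and LC1, a doxycycline-activated Cre driven in the renal tubule, so that interstitial, vascular and glomerular cells keep the gene. The other 18 libraries came from littermate Bmal1 lox/lox controls, 9 per treatment, without the Cre system. All mice, controls included, drank 2 mg/ml doxycycline for 2 weeks from 8 weeks of age. Streptozotocin (50 mg/kg, intraperitoneal, once a day for 5 days) or PBS followed 1 week later, and 8 weeks after the last of these the whole kidney was collected, at zeitgeber time 9. Nothing in the labels gives the blood glucose of a mouse, and the action of the drug on the kidney and the action of the diabetes cannot be told apart in this design.

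Streptozotocin is a glucose-linked alkylating agent that enters cells through the glucose transporter GLUT2. It destroys pancreatic beta cells, which use that transporter, and proximal tubule cells express it too. The tubule reabsorbs filtered glucose and makes glucose of its own, and diabetes is known to raise both tasks. BMAL1 is the activator of the circadian clock, and it drives the repressors of its own loop together with many genes of metabolism and detoxification.

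Read depth was even. The 18 cKOt libraries held 17.3 to 22.3 M reads assigned to genes (median 19.7 M), with 20778 to 21758 genes detected per library. Mitochondrial genes took a mean of 14.4% ± 1.83 SD of the reads in the 9 PBS-cKOt libraries and 15.8% ± 1.71 SD in the 9 STZ-cKOt libraries, a difference of 1.40 percentage points (exact two-sided permutation test, p = 0.117, adjusted p = 0.217 over 13 library values). Without PBS-cKOt 1 and 3 it was 1.66 points (exact permutation test, adjusted p = 0.0345). These 2 libraries stood apart from the other 16 in the slope of their gene levels on transcript length, at -0.170 and -0.0753 against -0.0566 to 0.0739. PBS-cKOt 3, 4 and 5 had the highest levels of the fat cell gene Adipoq, at 8.86, 5.01 and 7.93 CPM (counts-per-million, on TMM-scaled library sizes), against at most 2.83 elsewhere in the comparison. Several counts and calls below depended on these libraries, and their values without them are given beside them.

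The kidney label fits the defining markers. Lrp2, the endocytic receptor of the proximal tubule, lay between 1016 and 2432 CPM in the 18 libraries, and markers of adrenal gland and muscle summed to 0.823 to 2.94 CPM. Arntl itself ranged from 12.9 to 17.4 CPM in PBS-cKOt and from 13.0 to 17.1 CPM in STZ-cKOt. The Arntl count covers exons outside the deleted part and so does not check the deletion. In 17 of the 18 control libraries Arntl lay between 1.09 and 2.64 CPM, while the library labelled STZ-control 2 held 13.4 CPM, a level inside the cKOt range. The Arntl level of that library goes against its label. On the first principal component of all 36 libraries it lay at -13.5. The other control libraries lay between -31.0 and -7.12 there, and the cKOt libraries between 9.12 and 29.2. The main counts, overlaps and differences that involve control kidneys are given with and without this library, while means of the control groups include it.

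Streptozotocin shifted the kidney transcriptome in cKOt mice in both directions. Of 15637 genes tested, 1819 passed an adjusted p under 0.05 in edgeR's quasi-likelihood test (11.6%). Of these, 939 were higher (6.00% of the genes tested) and 880 were lower (5.63%) after streptozotocin. At least 2-fold differences were found for 90 of the higher and 61 of the lower genes. The 9 and 9 libraries did not overlap for 137 genes (0.876%), 71 with STZ-cKOt above (0.454%) and 66 with it below (0.422%). The median log2 fold change of all tested genes was -0.001, and the shares above are the background against which each gene group below is read. The gene lists were drawn up with earlier results of these data known, so their counts and medians are descriptions and not tests. Summed levels of marker lists were compared across libraries with exact permutation tests, and these lists too were chosen with earlier results known. In bulk kidney RNA, fewer cells of a type and less RNA per cell cannot be told apart.

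The 15 largest rises were log2 fold changes of 1.39 to 2.82. Eda2r (a receptor for ectodysplasin A2), Psrc1 (a spindle protein), Inka2, Cdkn1a (the cell cycle inhibitor p21), Ddias (a DNA damage-induced anti-apoptotic factor), Phlda3 (an inhibitor of AKT) and Plcd4 (a phospholipase C) rose by at least 1.40, and none of these 7 had overlapping groups. The other 8 had overlapping groups: the glucuronosyltransferase Ugt1a10, the aldehyde dehydrogenases Aldh1a7 and Aldh1a1, the fatty acid hydroxylase Cyp4a14, the vitamin D carrier Gc, the carbonyl reductase Cbr3, Depp1 and Dlg2. The 15 largest falls in the same ranking were in Scd1, Inmt, Kcng1, Mdk, Cyp2a4, Bcat1, Akr1c18, Rnf180, Anxa13, Cyp2a5, Cyp4b1, Ces1d, Itih2, Lipo2 and Cntnap5a. They ran from -2.85 for Scd1 to -1.16 for Cntnap5a. Inmt, an indolethylamine N-methyltransferase, lay between 339 and 692 CPM (median 425) in PBS-cKOt and between 114 and 197 CPM (median 144) in STZ-cKOt. Its groups did not overlap (log2 fold change -1.60 ± 0.15 SE, n = 9 each, edgeR adjusted p = 4.4e-10). Kcng1, a modifier subunit of voltage-gated potassium channels, fell by 1.52 on the log2 scale without overlap, and the growth factor gene Mdk fell by 1.46 with overlapping groups.

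**Figure D1:**
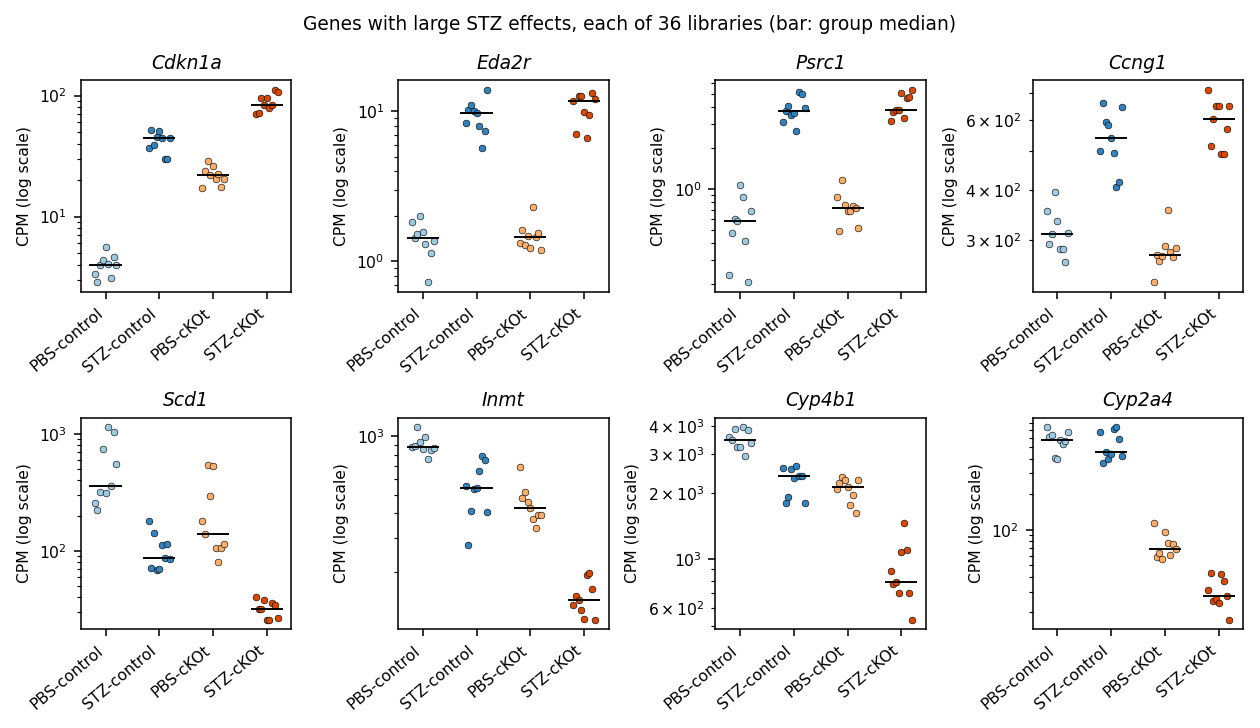
Level of 8 genes in each of the 36 libraries, in CPM on a log axis, by group (points are libraries, bars are group medians). Cdkn1a, Eda2r, Psrc1 and Ccng1 lie higher in every STZ-cKOt library than in any PBS-cKOt library, and Scd1, Inmt, Cyp4b1 and Cyp2a4 lie lower.

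Cdkn1a encodes p21, the inhibitor of cyclin-dependent kinases through which p53 halts the cell cycle. Its level was 17.1 to 28.8 CPM (median 22.2) in PBS-cKOt and 70.6 to 112 CPM (median 84.2) in STZ-cKOt. The lowest STZ-cKOt library was above the highest PBS-cKOt library. The rise was 4.02-fold (log2 fold change 2.01 ± 0.12 SE, 95% interval 1.77 to 2.24, n = 9 each, edgeR adjusted p = 1.77e-15). The gene lies at chr17:29090976-29100727 on the plus strand (GRCm38, GENCODE M21). The 250 bases before a RefSeq start of the gene, chr17:29090729-29090978 in GRCm38.p6, are shown because they hold a pair of p53 core motifs. The capitals mark this pair, searched on both strands as CATGNNNNNNCATG, 48 to 35 bases before that start. Windows without the pair were not shown. The pair was found in 0.712% of 32851 promoter windows that reach from 250 bases before to 50 after a start, and of 24 p53 target genes with a window only Cdkn1a held it. The share is of single windows, while a gene counted if any of its windows held the pair.
Cdkn1a: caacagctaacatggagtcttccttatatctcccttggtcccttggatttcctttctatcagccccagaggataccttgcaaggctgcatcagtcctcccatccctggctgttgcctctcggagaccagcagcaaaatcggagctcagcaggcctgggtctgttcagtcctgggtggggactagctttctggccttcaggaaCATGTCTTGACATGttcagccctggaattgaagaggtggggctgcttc

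The p53 target list, which the earlier analysis of these data had added after seeing them, had 30 tested genes. Of these, 20 rose and 1 fell, against a background of 6.00% and 5.63%, and 13 did not overlap between the groups, all with STZ-cKOt above. The list's median log2 fold change was 0.56. Eda2r rose from 1.18 to 2.30 CPM (median 1.46) in PBS-cKOt to 6.66 to 13.3 CPM (median 11.7) in STZ-cKOt. No STZ-cKOt library reached down to the PBS-cKOt range (log2 fold change 2.82 ± 0.17 SE, n = 9 each, edgeR adjusted p = 2.4e-15). Ccng1, the gene of cyclin G1 and the most abundant of the group, lay between 235 and 357 CPM (median 275) in PBS-cKOt and between 493 and 714 CPM (median 605) in STZ-cKOt, again without overlap (1.08 ± 0.09 SE, edgeR adjusted p = 7.03e-11).

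The members that rose act at different steps of the p53 response. Among those tied to cell division, Psrc1 rose from at most 1.17 CPM in PBS-cKOt to at least 3.17 CPM in STZ-cKOt. Gtse1 (a p53 regulator at G2) rose by a log2 fold change of 1.61 and Plk2 (a polo-like kinase) by 0.93. Among those tied to cell death, the BH3-only gene Bbc3 (PUMA) rose by 1.05, the death receptor gene Tnfrsf10b by 0.94 and the nuclease gene Aen by 0.68. The stress protein gene Trp53inp1 rose by 1.04 and the RNA-binding protein gene Zmat3 by 0.83. Mdm2, the ubiquitin ligase that removes p53, rose less, by 0.41 ± 0.05 SE, but from 52.3 to 59.3 CPM (median 58.1) to 68.8 to 92.4 CPM (median 73.7), with no overlap. Of these 9 rising genes Bbc3 alone had overlapping groups. Trp53 itself had a log2 fold change of -0.05 ± 0.06 SE (adjusted p = 0.712) and the pore-forming gene Bax 0.21 ± 0.13 SE (adjusted p = 0.297), neither past the edgeR threshold. Bax passed in 3 of 12 alternatives: with limma-voom (0.33, adjusted p = 0.0193), with 2 surrogate variables (0.30, adjusted p = 0.000259), and without PBS-cKOt 1 and 3 and STZ-control 7 and 8 (0.34, adjusted p = 0.0305). Perp, a junctional p53 target, was the 1 member that fell, by 0.21, and this call was lost without PBS-cKOt 1 and 3 (-0.17, adjusted p = 0.0764, edgeR). Without these 2 libraries 21 of the 30 genes rose and 0 fell, and without PBS-cKOt 3, 4 and 5 the counts were 19 and 1.

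Genes of DNA replication and mitosis were higher next to the p21 rise. Of 28 cell cycle genes tested, 12 rose and 0 fell (median log2 fold change 0.36), and 4 of the 12 had groups that did not overlap. Top2a, the topoisomerase of dividing cells, lay between 2.08 and 3.83 CPM (median 3.00) in PBS-cKOt and between 4.63 and 11.6 CPM (median 6.82) in STZ-cKOt. The groups did not overlap (1.20 ± 0.18 SE, n = 9 each, edgeR adjusted p = 1.64e-05). The proliferation marker Mki67 rose by 0.99, Rrm2 (ribonucleotide reductase) by 0.80, the spindle checkpoint kinase Bub1 by 1.44 and the cyclin A2 gene Ccna2 by 0.60. The cyclin-dependent kinase inhibitor Cdkn1b had a log2 fold change of 0.09 ± 0.07 SE (edgeR adjusted p = 0.455). All levels were low, and Bub1 did not exceed 1.33 CPM in any library. Without PBS-cKOt 3, 4 and 5, 10 of the 28 rose and 0 fell.

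Interferon-stimulated genes were higher as a group. All 20 tested genes had a log2 fold change above 0, with a median of 0.44. Of these, 14 rose and 0 fell, but none had groups without overlap, and no rise exceeded 0.73. The antiviral gene Ifit2 lay between 13.1 and 21.7 CPM (median 18.4) in PBS-cKOt and between 19.8 and 35.8 CPM (median 30.9) in STZ-cKOt, with the groups overlapping at their edges (0.73 ± 0.11 SE, n = 9 each, edgeR adjusted p = 1.75e-05). Ifit1, which binds viral RNA caps, rose by 0.69, the virus-tethering protein gene Bst2 by 0.55, the transcription factor gene Irf7 by 0.53, the guanylate-binding protein gene Gbp2 by 0.53, Ifit3 by 0.49 and Oasl2 by 0.44. Markers of immune cells were measured beside them. Of 13 macrophage markers 0 rose and 1 fell, with a summed level of 185 to 247 CPM in PBS-cKOt and 210.0 to 248 CPM in STZ-cKOt. Of 11 lymphocyte and neutrophil markers 1 rose and 0 fell, with sums of 32.6 to 71.1 CPM (mean 51.2) in PBS-cKOt and 44.0 to 107 CPM (mean 70.2) in STZ-cKOt (exact permutation test, adjusted p = 0.066), and 0 rose without PBS-cKOt 3, 4 and 5. The part of immune cells in the interferon-stimulated rise was not tested.

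The interferon-stimulated response element, searched as GAAANNGAAA on both strands, was present in 9 of the 15 interferon-stimulated genes that have a RefSeq promoter window, and in 3.44% of all 32851 windows. A gene counted if any of its windows held a match, so the count of genes and the share of windows are in unlike units. The 9 were Bst2, Ddx58, Gbp2, Gbp3, Ifit1, Ifit3, Isg15, Oas1a and Stat2. The 250 bases before a RefSeq start of 4 that rose are shown, since they carry the shared letters of this group, with the matches in capitals. A match is a description of the letters and not a measured binding site. The windows are Ifit1 at chr19:34640639-34640888 (plus strand), Ifit3 at chr19:34583279-34583528 (plus strand), Bst2 at chr8:71537473-71537722 (minus strand) and Gbp2 at chr3:142620413-142620662 (plus strand), all in GRCm38.p6. Ifit1 and Ifit3 each hold 2 matches on the opposite strand, read here as TTTCACTTTC and TTTCAGTTTC. In Bst2 2 overlapping matches run together, and Gbp2 has 1.
Ifit1: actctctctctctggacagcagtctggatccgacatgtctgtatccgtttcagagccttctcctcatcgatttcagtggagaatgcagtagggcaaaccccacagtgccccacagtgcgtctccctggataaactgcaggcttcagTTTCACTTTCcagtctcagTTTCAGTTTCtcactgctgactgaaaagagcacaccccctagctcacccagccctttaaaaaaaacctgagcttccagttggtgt
Ifit3: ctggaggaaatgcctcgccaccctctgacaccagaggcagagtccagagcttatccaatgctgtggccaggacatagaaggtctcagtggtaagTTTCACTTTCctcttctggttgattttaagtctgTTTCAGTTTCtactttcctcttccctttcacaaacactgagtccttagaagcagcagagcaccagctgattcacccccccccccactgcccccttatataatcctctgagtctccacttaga
Bst2: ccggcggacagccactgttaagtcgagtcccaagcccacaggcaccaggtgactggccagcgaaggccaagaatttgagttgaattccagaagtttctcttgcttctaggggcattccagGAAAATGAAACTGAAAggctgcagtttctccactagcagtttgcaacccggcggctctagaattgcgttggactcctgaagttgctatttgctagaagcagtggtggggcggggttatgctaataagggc
Gbp2: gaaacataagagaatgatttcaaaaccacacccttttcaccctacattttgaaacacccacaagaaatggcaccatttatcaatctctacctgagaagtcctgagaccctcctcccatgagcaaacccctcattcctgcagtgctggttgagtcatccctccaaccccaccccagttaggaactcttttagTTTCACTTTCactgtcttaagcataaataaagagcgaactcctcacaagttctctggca

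Transcripts of the extracellular matrix rose in STZ-cKOt kidneys. Of 21 matrix and fibrosis genes tested, 13 rose and 1 fell (median log2 fold change 0.44). The gelatinase gene Mmp2 lay between 2.30 and 3.73 CPM (median 3.02) in PBS-cKOt and between 4.27 and 6.27 CPM (median 5.36) in STZ-cKOt, without overlap (0.79 ± 0.11 SE, n = 9 each, edgeR adjusted p = 6.46e-06). Sparc, a collagen-binding matrix protein, went from 58.2 to 101 CPM (median 95.7) to 112 to 160 CPM (median 120), also without overlap (0.55 ± 0.10 SE). Fibronectin (Fn1) rose by 0.98, the collagen cross-linking enzyme gene Lox by 0.73 and the collagen genes Col3a1 and Col1a2 by 0.68 and 0.46, all with overlapping groups. Tgfb1, the main profibrotic cytokine gene, had a log2 fold change of 0.11 ± 0.10 SE (edgeR adjusted p = 0.511). Timp3, an inhibitor of metalloproteinases, was the 1 gene that fell, by 0.35, and lost its call without PBS-cKOt 3, 4 and 5 (-0.22, adjusted p = 0.214, edgeR). The number of matrix genes that rose depended on the libraries: it was 8 without PBS-cKOt 1 and 3 and 9 without PBS-cKOt 3, 4 and 5.

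Markers of the cells that make matrix moved with it. Of 8 mural cell and fibroblast markers tested, 2 rose and 0 fell: the pericyte gene Rgs5 by 0.38 without overlap, and the fibroblast receptor gene Pdgfra by 0.46. The 8 markers summed to 206 to 279.9 CPM in PBS-cKOt and to 279.6 to 331 CPM in STZ-cKOt, with means of 251 ± 22.9 and 307 ± 18.2 (SD, n = 9 each; exact two-sided permutation test, p = 8.23e-05, adjusted p = 0.00107). The part of these cells in the matrix rise was not tested. Podocyte markers summed to 438 ± 60.1 and 524 ± 39.9 CPM (exact permutation test, adjusted p = 0.0111), while 2 of 10 single markers passed, 1 with DESeq2 size factors or without PBS-cKOt 1 and 3, and 0 without PBS-cKOt 3, 4 and 5. The slit diaphragm gene Nphs1 was at 0.41 ± 0.15 SE (edgeR adjusted p = 0.0675), and it passed with limma-voom (adjusted p = 0.0257) and in 3 of 18 leave-one-out fits. Proximal tubule markers summed to 15168 ± 1165 CPM in PBS-cKOt and 12882 ± 995 CPM in STZ-cKOt (exact permutation test, adjusted p = 0.00615).

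**Figure D2:**
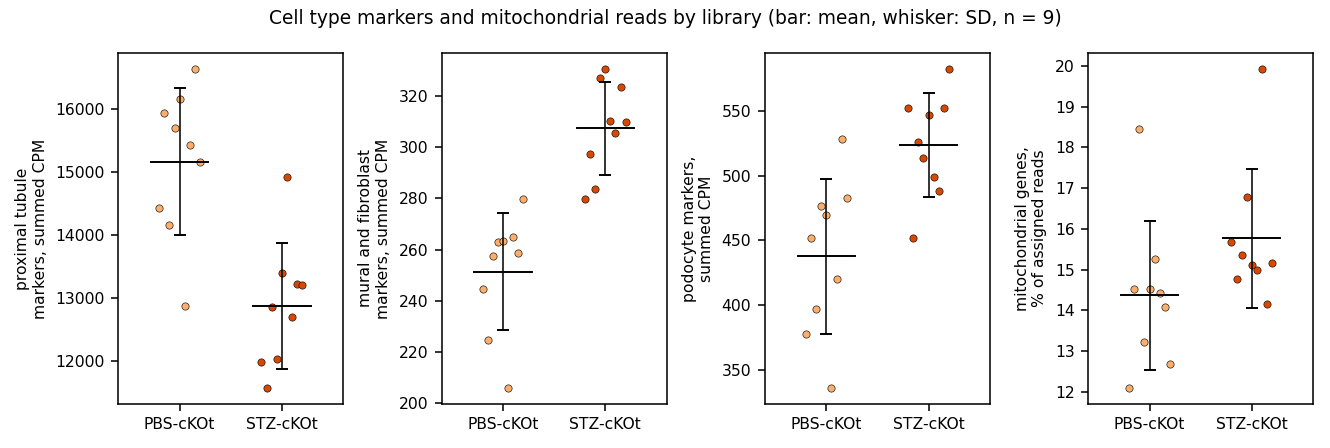
Summed level of proximal tubule, mural and fibroblast, and podocyte markers, in CPM, and mitochondrial genes as percent of assigned reads, in the 18 cKOt libraries (points are libraries, bars the mean, whiskers the SD, n = 9 each; axes do not start at 0). The proximal tubule sum is lower in STZ-cKOt (12882 against 15168), the mural and fibroblast and the podocyte sums are higher (307 against 251, and 524 against 438), and the mitochondrial shares overlap.

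Tubular injury and inflammation genes changed in part. Of 18 injury genes 7 rose and 0 fell (median log2 fold change 0.22), and 4 of 19 rose without PBS-cKOt 1 and 3 as well as without PBS-cKOt 3, 4 and 5. Osteopontin (Spp1), secreted by injured tubules, lay between 428 and 819 CPM (median 566) in PBS-cKOt and between 682 and 1186 CPM (median 928) in STZ-cKOt. The groups overlapped (0.71 ± 0.10 SE, n = 9 each, edgeR adjusted p = 9.69e-06). Ceruloplasmin (Cp) rose by 0.61 and the intermediate filament gene Vim by 0.33. The injury marker Havcr1 (KIM-1) had a log2 fold change of 0.50 ± 0.26 SE (edgeR adjusted p = 0.237). Lcn2 (NGAL) passed at 0.77 ± 0.25 SE (adjusted p = 0.0398) but lost its call in 11 of 18 leave-one-out fits and without PBS-cKOt 3, 4 and 5 (0.66, adjusted p = 0.175, edgeR). Of 16 inflammation genes 4 rose and 1 fell. The chemokine gene Cxcl10, itself interferon-induced, rose by 0.70 without overlap, from 2.90 to 4.61 CPM (median 3.46) to 5.05 to 7.17 CPM (median 5.87). Complement C3 rose by 1.07, a value that fell to 0.71 without STZ-cKOt 9 (adjusted p = 0.0333, edgeR). Il34, a ligand of the macrophage receptor CSF1R, fell by 0.82.

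**Figure D3:**
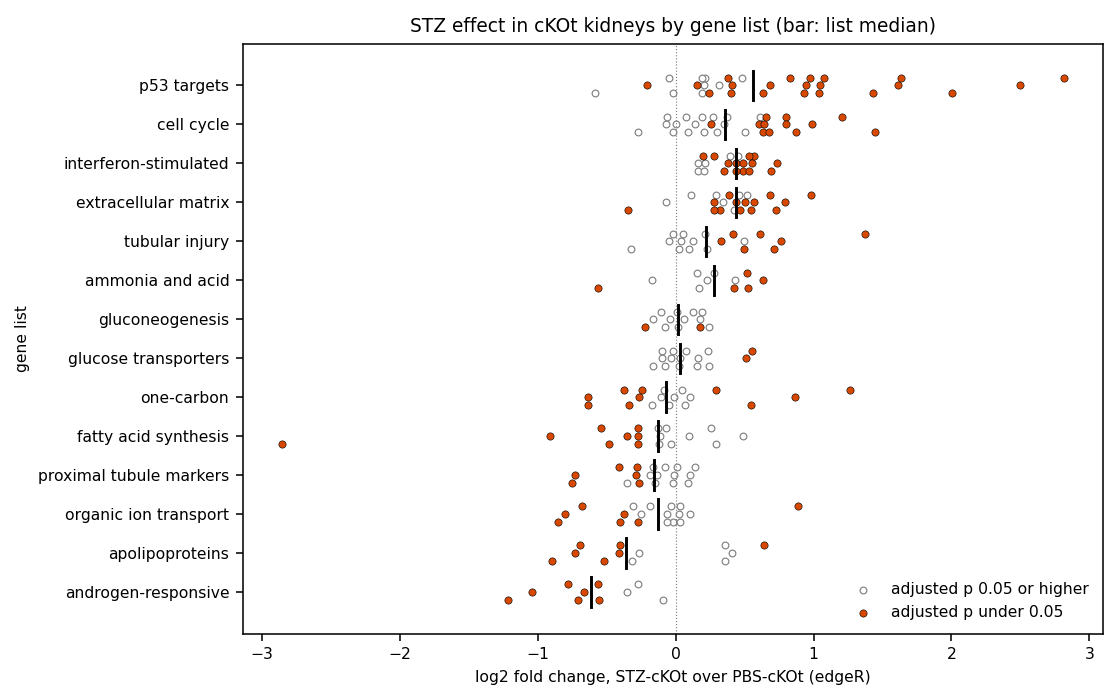
Log2 fold change of STZ-cKOt over PBS-cKOt for each tested gene of 14 lists (filled points passed an adjusted p under 0.05 in edgeR, open points did not, bars are list medians). List medians run from 0.56 for p53 targets to -0.61 for androgen-responsive genes.

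Scd1 fell furthest of the named genes. It encodes the stearoyl-CoA desaturase that makes monounsaturated fatty acids under insulin and SREBP-1c control. Scd1 lay between 80.6 and 544 CPM (median 139) in PBS-cKOt and between 25.8 and 40.4 CPM (median 31.8) in STZ-cKOt. Every STZ-cKOt library was below every PBS-cKOt library, and the drop was 7.23-fold (log2 fold change -2.85 ± 0.35 SE, n = 9 each, edgeR adjusted p = 4.12e-07). The 3 highest PBS-cKOt libraries were 3, 4 and 5, at 544, 296 and 533 CPM, which are also those with the most Adipoq. Without them Scd1 fell by 1.91 on the log2 scale (adjusted p = 2.31e-05, edgeR).

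Other genes of fatty acid synthesis fell less. Of 17 tested, 0 rose and 8 fell (median log2 fold change -0.13), and 4 fell without PBS-cKOt 3, 4 and 5. The fatty acid synthase gene Fasn fell by 0.91 and the acetyl-CoA carboxylase gene Acaca by 0.54. Fasn reached 190.0, 106 and 173 CPM in PBS-cKOt 3, 4 and 5 and at most 67.5 CPM in the other 6 PBS-cKOt libraries. Without those 3 libraries Fasn was at -0.32 (adjusted p = 0.452) and Acaca at -0.24 (adjusted p = 0.404), and neither passed in edgeR. Without PBS-cKOt 1 and 3 the values were -0.76 (adjusted p = 0.0517) and -0.47 (adjusted p = 0.0806, edgeR). Leaving out PBS-cKOt 3 alone ended both calls (Fasn -0.71, adjusted p = 0.0562; Acaca -0.45, adjusted p = 0.0716, edgeR), and leaving out PBS-cKOt 5 ended that of Acaca (-0.45, adjusted p = 0.0635, edgeR). The desaturase gene Fads2, which fell by 0.48, the malic enzyme gene Me1, by 0.27, and Mlxipl, the glucose-sensing factor ChREBP, by 0.35, passed with and without them. The list of fat cell markers summed to 34.0 to 139.5 CPM in PBS-cKOt and 51.8 to 85.4 CPM in STZ-cKOt, and 1 of its 7 tested genes fell, against 0 without either set of libraries. Adipoq was at 0 in PBS-cKOt 8 and did not pass (-1.23 ± 0.72 SE, edgeR adjusted p = 0.297), with a value of 1.13 without PBS-cKOt 3, 4 and 5. The part of fat tissue in the Fasn and Acaca difference was not tested.

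**Figure D4:**
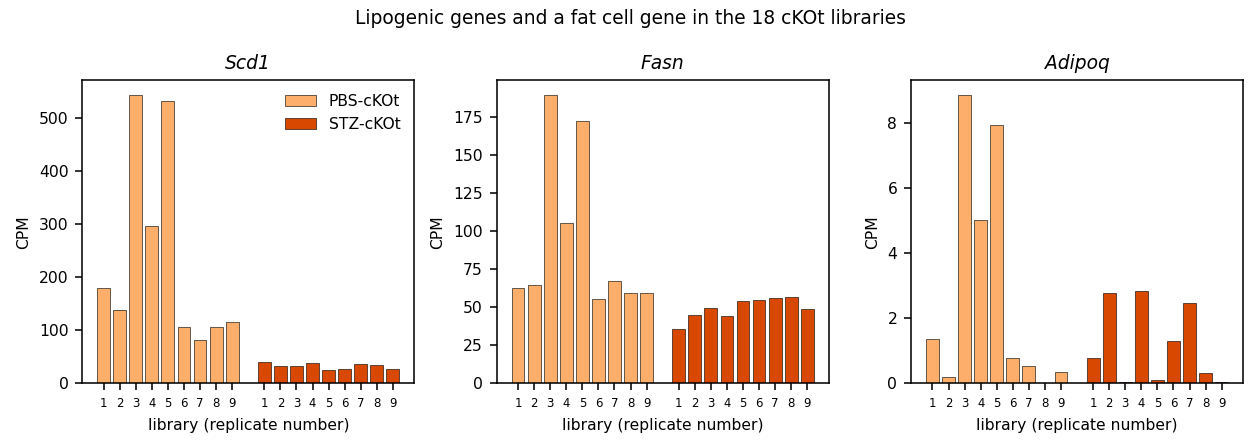
Level of Scd1, Fasn and the fat cell gene Adipoq in CPM in each cKOt library, by replicate number (bars start at 0). PBS-cKOt 3, 4 and 5 are the highest in all 3 panels, while Scd1 is at most 40.4 in STZ-cKOt and at least 80.6 in PBS-cKOt.

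Among apolipoprotein genes more fell than rose. Of 12 apolipoprotein and lipoprotein genes 1 rose and 6 fell (median log2 fold change -0.36), with counts of 1 and 4 without PBS-cKOt 1 and 3 and of 0 and 3 without PBS-cKOt 3, 4 and 5. Apoa4, made in the gut and at low levels in the kidney, lay between 6.39 and 10.3 CPM (median 7.24) in PBS-cKOt and between 2.91 and 5.86 CPM (median 4.21) in STZ-cKOt, without overlap (-0.90 ± 0.15 SE, n = 9 each, edgeR adjusted p = 5.01e-05). Apoh fell by 0.73 and Apom, the carrier of sphingosine-1-phosphate, by 0.52. Apoa2 rose by 0.64, a call lost without PBS-cKOt 3, 4 and 5 (0.51, adjusted p = 0.0551, edgeR). Of 30 fatty acid oxidation genes 2 rose and 6 fell, with a median of 0.01 and 16 of 30 above 0. Without PBS-cKOt 1 and 3 the counts were 1 and 4, and without PBS-cKOt 3, 4 and 5 they were 1 and 3. Cpt2, the inner-membrane carnitine palmitoyltransferase, fell by 0.22. Cyp4a14, a PPAR-alpha target, passed at 1.83 ± 0.61 SE (adjusted p = 0.0452), but STZ-cKOt 9 held 894 CPM against at most 176 CPM in the other 8 libraries of its group. Without STZ-cKOt 9 the value was 0.75 (adjusted p = 0.416, edgeR), and the call was lost in 11 of 18 leave-one-out fits. Reads that fit near-identical Cyp4a genes as well are not assigned, so the level of Cyp4a14 is uncertain.

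Of 10 ketone body and monocarboxylate genes 2 fell, both without overlap, and 0 rose. Bdh1, the beta-hydroxybutyrate dehydrogenase, lay between 161 and 205 CPM (median 191) in PBS-cKOt and between 95.6 and 149 CPM (median 123) in STZ-cKOt (-0.59 ± 0.08 SE, n = 9 each, edgeR adjusted p = 1.39e-06). Acat1, which splits acetoacetyl-CoA, fell by 0.42.

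Proximal tubule and androgen-responsive genes were lower. Of 10 androgen-responsive kidney genes all had a log2 fold change below 0, 7 fell and 0 rose (median -0.61). Cyp4b1, a fatty acid and xenobiotic hydroxylase, lay between 1611 and 2348 CPM (median 2113) in PBS-cKOt and between 531 and 1460.2 CPM (median 790.4) in STZ-cKOt, without overlap (-1.22 ± 0.12 SE, n = 9 each, edgeR adjusted p = 4.11e-09). Kap, the kidney androgen-regulated protein and one of the most abundant kidney transcripts, lay between 20612 and 46836 CPM (median 27941) in PBS-cKOt and between 11724 and 25543 CPM (median 18963) in STZ-cKOt, with overlap (-0.71 ± 0.16 SE, edgeR adjusted p = 0.00213). The organic anion transporter gene Slco1a1 fell by 1.04, the acyl-CoA synthetase gene Acsm3 by 0.78, Cyp2j13 by 0.66, Slc22a28 by 0.56 and the ornithine decarboxylase gene Odc1 by 0.55. The labels used here give no androgen level.

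Of 18 proximal tubule markers 6 fell and 0 rose (median -0.16). Slc7a13, an amino acid transporter of the last proximal segment, lay between 651 and 829 CPM (median 713) in PBS-cKOt and between 229 and 569 CPM (median 441) in STZ-cKOt, without overlap (-0.73 ± 0.12 SE, n = 9 each, edgeR adjusted p = 3.33e-05). Miox, which opens the myo-inositol ring, fell by 0.75 and the gamma-glutamyltransferase gene Ggt1 by 0.41. Of 18 organic ion transporters 6 fell and 1 rose. The drug exporter gene Slc47a1 (MATE1) went from 707 to 861 CPM (median 792) to 529 to 700 CPM (699.5 at most, median 571), without overlap (-0.41 ± 0.06 SE). Slc22a30 fell by 0.80, Slc22a8 (OAT3) by 0.68 and Slc22a7 (OAT2) by 0.86. Abcc4 (MRP4), which exports cyclic nucleotides and organic anions, was the member that rose, from 28.4 to 57.3 CPM (median 39.8) to 53.03 to 107 CPM (median 75.8), with overlap (0.89 ± 0.17 SE, edgeR adjusted p = 0.000314).

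Genes of glucose production and most glucose transporters did not pass. Of 13 gluconeogenesis genes 1 rose and 1 fell (median log2 fold change 0.02), and 0 fell without either set of libraries that stood apart. Pck1, the cytosolic PEP carboxykinase, lay between 1475 and 3102 CPM (median 2054) in PBS-cKOt and between 1890 and 3321 CPM (median 2260.1) in STZ-cKOt. The ranges overlapped almost fully (0.19 ± 0.14 SE, 95% interval -0.09 to 0.47, edgeR adjusted p = 0.43). G6pc, the glucose-6-phosphatase, was at -0.04 ± 0.12 SE (interval -0.28 to 0.20, adjusted p = 0.883) and the fructose bisphosphatase gene Fbp1 at 0.13 ± 0.08 SE (interval -0.03 to 0.28, adjusted p = 0.32, edgeR). Slc5a2 (SGLT2) was at -0.17 ± 0.13 SE (adjusted p = 0.45; -0.295 and 0.0189 with 2 surrogate variables) and Slc5a1 (SGLT1) at 0.07 ± 0.08 SE (adjusted p = 0.606, edgeR). Of 15 glucose transporter genes 2 rose and 0 fell. Slc2a2 (GLUT2) lay between 112 and 205 CPM (median 160) in PBS-cKOt and between 137 and 297 CPM (median 230) in STZ-cKOt, with overlap (0.51 ± 0.13 SE, edgeR adjusted p = 0.00619), and Slc5a10 (SGLT5), a mannose and fructose carrier, rose by 0.55. The coactivator gene Ppargc1a did not pass (0.21 ± 0.09 SE, edgeR adjusted p = 0.0989) except with 2 surrogate variables (0.19, adjusted p = 0.00556). None of 15 citric acid cycle, 8 pentose phosphate and 23 nuclear respiratory chain genes passed.

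Of 20 insulin and IGF signalling genes 5 rose and 1 fell (median 0.04), against a background of 6.00% and 5.63%. The counts were 4 and 2 without PBS-cKOt 1 and 3, and 4 and 1 without PBS-cKOt 3, 4 and 5. The insulin receptor substrate gene Irs1 rose by 0.45, and Foxo3, a transcription factor that insulin signalling holds out of the nucleus, rose by 0.41. Igfbp1, which insulin represses in liver, lay between 0.939 and 4.46 CPM (median 2.30) in PBS-cKOt and between 2.33 and 14.96 CPM (median 5.54) in STZ-cKOt. It passed at 1.36 ± 0.37 SE (adjusted p = 0.013) with overlap and lost its call without PBS-cKOt 3, 4 and 5 (1.11, adjusted p = 0.0967, edgeR). Igfbp5 rose by 0.59 and Igfbp4 fell by 0.44. Pdk1, the kinase that shuts pyruvate dehydrogenase, was 1 of 3 glycolysis-linked genes among 22 that rose, by 0.43, and without PBS-cKOt 3, 4 and 5 the count was 1. Of the growth factors, Nrg1 (neuregulin 1) rose by 0.96 and Fgf1 fell by 0.61, both without overlap.

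Acid-base and distal segments gave further differences. Of 11 ammonia and acid-handling genes 4 rose and 1 fell (median 0.28), and 2 rose without PBS-cKOt 3, 4 and 5. The cytosolic carbonic anhydrase gene Car2 went from 273 to 345 CPM (median 311) to 347 to 563 CPM (median 457), without overlap (0.52 ± 0.07 SE, n = 9 each, edgeR adjusted p = 5.82e-06). Glud1, which releases ammonia from glutamate, rose by 0.52, and the glutamine transporter gene Slc38a3 by 0.63, the latter call lost without PBS-cKOt 3, 4 and 5 (0.50, adjusted p = 0.0727, edgeR). The membrane-bound carbonic anhydrase gene Car4 fell by 0.57. In the distal tubule 4 of 16 genes rose and 0 fell, among them Calb1, the calcium buffer, by 0.84 and the magnesium channel gene Trpm6 by 0.57. The summed level of the distal tubule list did not pass (exact permutation test, adjusted p = 0.432). Its mean log2 CPM was higher in STZ-cKOt by 0.218 (exact permutation test, adjusted p = 0.0125). In the thick ascending limb 2 of 12 genes rose and 2 fell, with a median of 0.001. Umod (uromodulin), its main product, fell by 0.61. The summed level of the list, in which abundant genes such as Umod weigh most, was 4158 ± 580.2 CPM in PBS-cKOt and 3530 ± 456 CPM in STZ-cKOt (exact permutation test, adjusted p = 0.066, and 0.0332 without PBS-cKOt 1 and 3). The mean log2 CPM of the list, which weighs its genes alike, differed by -0.00105 (exact permutation test, adjusted p = 0.988). Sgk1, the aldosterone-induced kinase that keeps ENaC at the membrane, lay between 91.8 and 143 CPM (142.8 at most, median 125) in PBS-cKOt and between 144 and 316 CPM (143.8 at least, median 201) in STZ-cKOt. The 2 groups met without overlapping (0.70 ± 0.15 SE, edgeR adjusted p = 0.0016). Hsd11b2, which shields the mineralocorticoid receptor from glucocorticoids, fell by 0.44. Ace, the angiotensin-converting enzyme, was the only 1 of 10 renin-angiotensin genes to pass. It went from 216 to 348 CPM (median 289.7) to 124 to 206 CPM (median 155), without overlap (-0.84 ± 0.13 SE, edgeR adjusted p = 1.22e-05).

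In methionine and betaine metabolism 4 of 18 genes rose and 6 fell (median -0.07), with 3 and 4 without PBS-cKOt 1 and 3 and 1 and 6 without PBS-cKOt 3, 4 and 5. Cbs, which starts transsulfuration of homocysteine, lay between 182 and 238 CPM (median 205) in PBS-cKOt and between 111 and 156 CPM (median 125) in STZ-cKOt, without overlap (-0.63 ± 0.08 SE, n = 9 each, edgeR adjusted p = 1.74e-07). Mat2a, which makes S-adenosylmethionine, fell by 0.63 and Ahcy, which clears S-adenosylhomocysteine, by 0.34. Slc6a12, the betaine transporter, rose by 1.27 at low level, from 1.97 to 4.202 CPM (median 2.75) to 3.33 to 13.8 CPM (median 6.96).

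Detoxification genes that the clock drives through PAR-bZIP factors fell in part. Of 12 tested, 2 rose and 5 fell (median -0.63), with 1 and 5 without PBS-cKOt 1 and 3 and 0 and 4 without PBS-cKOt 3, 4 and 5. The D-box motif searched for this list, TTATGTAA, was found in 1 of its 7 genes with a RefSeq promoter window, Ces1g. It was found in 0 of the 3 called genes with a window, and in 0.938% of all 32851 single windows. Cyp2a4, a steroid hydroxylase, lay between 56.3 and 113 CPM (median 69.2) in PBS-cKOt and between 17.4 and 43.2 CPM (median 27.7) in STZ-cKOt, without overlap (-1.29 ± 0.17 SE, n = 9 each, edgeR adjusted p = 7.71e-07). The carboxylesterase genes Ces1d and Ces1f fell by 1.19 and 0.58. Cyp2a5, a close copy of Cyp2a4, fell by 1.23. Reads that fit both copies of this pair are not assigned, like those shared by Aldh1a1 and Aldh1a7 or by Ugt1a10 and the other Ugt1a forms. The single values of these genes are therefore uncertain. Aldh1a7 and Aldh1a1, aldehyde dehydrogenases of which the second makes retinoic acid, rose by 1.87 and 1.65, and Cbr3 by 1.41. Ugt1a10 rose by 1.98, with 172 CPM in STZ-cKOt 9 and at most 83.4 CPM in the other 8. Without STZ-cKOt 9 the log2 fold change of Ugt1a10 was 1.68 (adjusted p = 0.0238), that of Gc 1.05 (adjusted p = 0.0169) in place of 1.45, and that of Depp1 0.93 (adjusted p = 0.0395, edgeR) in place of 1.41. Akr1c18, a progesterone-inactivating dehydrogenase, fell from 18.6 to 33.2 CPM (median 26.0) to 3.07 to 16.9 CPM (median 9.57), without overlap (-1.29 ± 0.24 SE).

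Core clock genes changed little. Of 7 activators and ROR-element genes 0 passed, Arntl at -0.08 ± 0.24 SE included (edgeR adjusted p = 0.888). This SE rests on the spread in all 4 groups, the library labelled STZ-control 2 included. In the fit of the 18 cKOt libraries alone 1 of the 7 fell. Of 13 repressor-arm and E-box genes 2 rose and 1 fell. Bhlhe40 (DEC1) lay between 81.4 and 128 CPM (median 102) in PBS-cKOt and between 40.2 and 83.2 CPM (median 72.6) in STZ-cKOt, with slight overlap (-0.57 ± 0.13 SE, n = 9 each, edgeR adjusted p = 0.00204). Nr1d2 (REV-ERB beta) rose by 0.33 and Bhlhe41 (DEC2) by 0.45. Both calls were lost without PBS-cKOt 1 and 3 (0.28, adjusted p = 0.0839, and 0.48, adjusted p = 0.0508, edgeR). That of Nr1d2 was also lost without STZ-cKOt 4 (0.30, adjusted p = 0.0528), and that of Bhlhe41 in 8 of 18 leave-one-out fits (adjusted p up to 0.0862, edgeR).

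The same drug in control kidneys, which shares no library with the cKOt comparison, changed 1919 genes (12.3%), 992 higher (6.34%) and 927 lower (5.93%). In these libraries 191 genes did not overlap (1.22%), 116 of them with streptozotocin above (0.742%) and 75 with it below (0.480%). Of the 939 genes higher in cKOt 373 were also higher in control (39.7% of the cKOt genes and 37.6% of the 992 control genes), and of the 880 lower genes 320 were also lower (36.4% and 34.5% of 927). Only 2 genes passed in opposite directions. Without the library labelled STZ-control 2, 1753 genes passed in control kidneys (891 higher, 862 lower), 344 were higher in both and 297 lower in both, and 1 passed in opposite directions. Across all 15637 genes the 2 log2 fold changes had a Pearson r of 0.53 and a Spearman rho of 0.37, a description across genes, which are not independent replicates (0.51 and 0.35 without that library). For p53 targets 25 of 30 rose in control kidneys and for interferon-stimulated genes 16 of 20. For matrix genes 3 of 21 rose and 1 fell in control kidneys, against 13 and 1 in cKOt. Without the library labelled STZ-control 2 the control counts were 24 of 30 p53 targets and 15 of 20 interferon-stimulated genes higher, and 1 matrix gene higher and 1 lower. With and without it, none of the 21 matrix genes differed between genotypes in the test of the difference itself.

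That test, the streptozotocin effect in cKOt minus the effect in control, called 7 of 15637 genes (0.0448%), all with a negative difference. Genes counted as lower in this test have a negative difference, which is not always a weaker response. Cdkn1a rose less in cKOt, and Mcm2 passed in control kidneys only, where it rose. Apoa4, Cyp2a4, Ppard and Cyp2a5 passed in cKOt, where they fell, and not in control kidneys. Apoc3 fell in cKOt, at the edge of the test, and rose in control kidneys. An unadjusted p under 0.05 was found for 1944 genes, so genes not called are not shown to respond alike in the 2 genotypes. DESeq2 called 20 (3 higher, 17 lower), limma-voom 15, and leaving out 1 cKOt library at a time 3 to 14. Without the library labelled STZ-control 2 edgeR called 6, and 5 of the 7 kept their call: Cdkn1a (-1.32), Apoc3 (-1.25), Apoa4 (-1.16), Cyp2a4 (-1.25) and Cyp2a5 (-1.69).

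Cdkn1a differed most clearly. It started higher in PBS-treated cKOt than in PBS-treated control kidneys (means 22.1 and 3.99 CPM) and rose to 88.8 and 41.4 CPM. On the log2 scale the rise was 2.01 ± 0.12 SE in cKOt and 3.37 ± 0.13 SE in control, a difference of -1.37 ± 0.17 SE (edgeR adjusted p = 1.93e-05). The neighbouring apolipoprotein genes Apoc3 (chr9:46232933-46235636) and Apoa4 (chr9:46240696-46243459, both GRCm38) also differed. Apoc3 averaged 9.16 CPM in PBS-cKOt and 6.86 CPM in STZ-cKOt, and 3.71 and 6.65 CPM in the control groups, a difference of -1.24 ± 0.21 SE (edgeR adjusted p = 0.00405). Its fall within cKOt was at the edge of the test (-0.41, adjusted p = 0.0499, edgeR) and lost its call in 8 of 12 alternatives and 9 of 18 leave-one-out fits, with -0.25 (adjusted p = 0.284) without PBS-cKOt 1 and 3. For Apoa4 the difference was -1.15 ± 0.21 SE (edgeR adjusted p = 0.0105), with control means of 6.14 and 7.37 CPM.

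Ppard, the fatty acid-sensing nuclear receptor PPAR-delta, lay between 84.4 and 146 CPM (median 112) in PBS-cKOt and between 45.9 and 99.3 CPM (median 65.1) in STZ-cKOt, with overlap. Control kidneys averaged 13.1 and 13.6 CPM. The fall in cKOt was -0.80 ± 0.12 SE and the difference from control -0.86 ± 0.17 SE (edgeR adjusted p = 0.0388). Without the library labelled STZ-control 2 it was -0.81 (adjusted p = 0.0799), and without PBS-cKOt 3, 4 and 5 -0.71 (adjusted p = 0.186, edgeR). Cyp2a4 averaged 567 and 531 CPM in the control groups and 74.7 and 30.4 CPM in cKOt, a difference of -1.20 ± 0.23 SE (edgeR adjusted p = 0.0233). Cyp2a5 averaged 116 and 147 CPM in control and 7.64 and 3.25 CPM in cKOt, a difference of -1.57 ± 0.32 SE (edgeR adjusted p = 0.0388). Mcm2, a subunit of the replicative helicase, rose in control kidneys from 10.7 to 13.6 CPM and was at 13.7 and 13.1 CPM in cKOt, where it did not pass (-0.06 ± 0.06 SE, difference -0.41 ± 0.08 SE, edgeR adjusted p = 0.0388). Without the library labelled STZ-control 2 the Mcm2 difference was -0.39 (adjusted p = 0.0811, edgeR). Of the other genes ranked by this difference, Creb3l1 (adjusted p = 0.0623), BC035947 (0.103), Stra6l and Itih2 (both 0.105) and Inmt (0.12) did not pass in edgeR. The differences for Cdkn1a and Apoc3 kept their call in all 12 alternatives and 18 leave-one-out fits, whereas those for Cyp2a5, Mcm2, Ppard, Cyp2a4 and Apoa4 each lost it in at least 1.

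**Figure D5:**
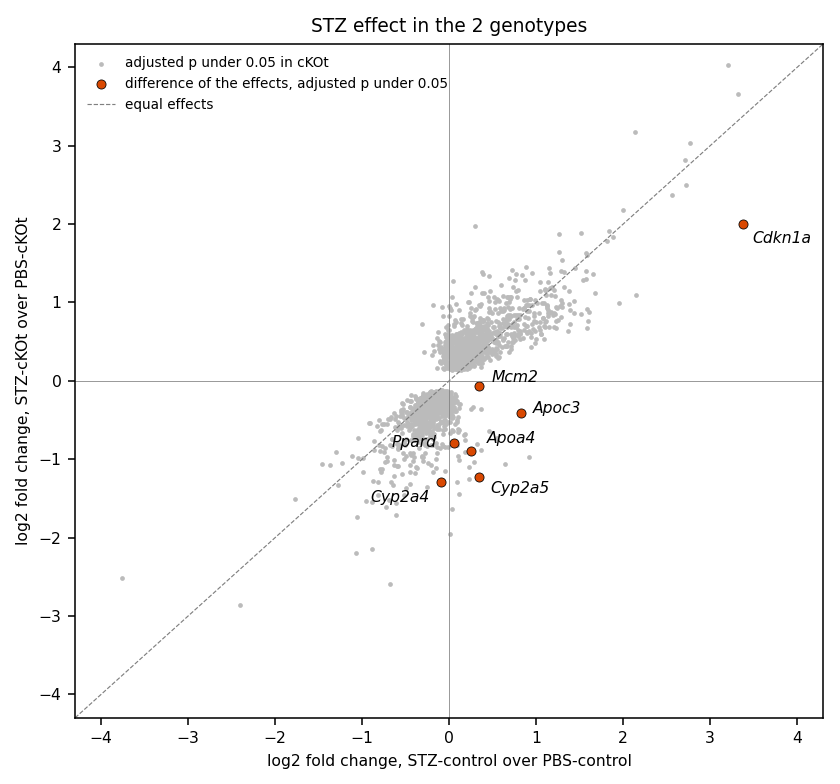
Log2 fold change of STZ over PBS in cKOt (vertical) against control kidneys (horizontal) for the genes that passed in cKOt (grey) and the 7 genes whose effects differed between genotypes (orange, named). Most grey points lie at the lower left and upper right, 863 of 939 higher and 785 of 880 lower genes with the same sign in control, and all 7 named genes lie below the dashed line of equal effects.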

How the data were processed

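Whole-kidney poly(A) RNA was sequenced from 36 mice in 4 groups of 9. The deposited values are raw read counts per gene. Per the submitters' processing notes, cutadapt 1.8, STAR 2.5.3a, HTSeq 0.9.1 and GRCm38 were used; the strand setting and annotation release are not given in the sources used here. Reads that align to several places are not assigned, which lowers the counts of near-identical genes. The 5 closing rows naming no gene were removed. In the cKOt libraries they held mainly reads aligned more than once (30.9% to 38.1% of counted reads) and reads in no gene (3.64% to 6.38%). Of 53715 gene IDs 53620 matched a GENCODE M21 symbol.

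edgeR 4.0.16 (R 4.3.3) was run on all 36 libraries with 1 mean per group, filterByExpr (15637 genes kept), TMM normalization and the quasi-likelihood test, giving 32 residual degrees of freedom. P-values were adjusted by Benjamini-Hochberg over all tested genes, with a threshold of 0.05. SE is the log2 fold change divided by the root of the F statistic, and CPM use TMM library sizes. Scripts were tested on simulated data. The alternatives were DESeq2 1.42.0 (its size factors and its Wald test), limma-voom 3.58.1 with quality weights, 2 surrogate variables (sva 3.50.0), other filters, a replicate block, the 18 cKOt libraries alone, no mitochondrial genes, and fits without single or several libraries. The fit without PBS-cKOt 3, 4 and 5, and the alternatives for control kidneys, were chosen after seeing the data.

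Genes were named by rule: the 15 largest called rises and falls whose mean reached 2 CPM, the 10 smallest p-values for the difference between genotypes among genes called in cKOt, up to 4 genes per list, and further list members with their values. Predicted-gene symbols (Gm numbers, Rik names and accession-like names) were left out of the ranked rises and falls. Mcm2 is named because it passed the test of the difference. The comparison and the gene lists were chosen with earlier results of these data known. Within-group library pairs differed by more than counting noise (chi-square per gene 5.85 to 99.8 over 144 pairs). Nothing states separate litters or days, so p-values measure the spread between these samples. Same-numbered libraries did not deviate together (correlations -0.17 to 0.099), so the numbers were not used as pairs. Values of 3 list members are not reported here.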

Additional observations from a re-analysis of the deposited data

Results flagged for a closer look

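Among 330 groups of 9 checked, 27 had a library far from the other 8 by Dixon's criterion (8.18%). The criterion flags about 1 in 20 groups of independent, normally distributed values. It was applied here to CPM that were not log-transformed, for genes that share libraries, so 8.18% cannot be tested against that rate. STZ-cKOt 9 accounted for 8 of the 27 flags and was highest of its group in each. Its levels were 894 CPM for Cyp4a14 (next 176), 172 CPM for Ugt1a10, 61.9 CPM for Aldh1a1, 136.5 CPM for Gc, 53.8 CPM for Depp1, 43.3 CPM for C3, 13.5 CPM for Apoa2 and 150.0 CPM for Cpt2. PBS-cKOt 8 was highest for Cyp4a14 (168 CPM), Ugt1a10 (62.9 CPM) and Slc5a1 (88.6 CPM), and lowest for Cyp2j13 (211 CPM).

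PBS-cKOt 1 was highest for Inmt (692 CPM), Ifit3 (23.5 CPM) and Apoa2 (9.93 CPM) and lowest for Trp53inp1 (35.2 CPM). PBS-cKOt 6 was highest for Eda2r (2.30 CPM), Ccng1 (357 CPM) and Lox (3.99 CPM), and PBS-cKOt 5 for Cyp2a5 (13.9 CPM). STZ-cKOt 6 was highest for Stra6l (49.8 CPM) and Il34 (14.5 CPM). STZ-cKOt 2 was highest for Umod (1882 CPM), Slc6a12 (13.8 CPM) and the summed distal tubule genes (7551 CPM). The mitochondrial share was highest in PBS-cKOt 3 (18.4%) and in STZ-cKOt 7 (19.9%).

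For 7 genes the streptozotocin effect differed between cKOt and control kidneys in edgeR's test of the difference. On the log2 scale the differences, cKOt minus control, were -1.37 for Cdkn1a, -1.24 for Apoc3, -1.15 for Apoa4, -1.20 for Cyp2a4, -0.86 for Ppard, -0.41 for Mcm2 and -1.57 for Cyp2a5.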

How the results depend on the processing

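The 1819 genes called in cKOt became 1275 to 2440 under 11 of the 12 alternatives and 1474 to 1952 when 1 library was left out (747 to 995 higher, 703 to 973 lower). With 2 surrogate variables the count was 3128 (1483 higher, 1645 lower); the cause was not tested. Without PBS-cKOt 3, 4 and 5 it was 1275. The 7 differences between genotypes became 20 with DESeq2's Wald test (3 higher, 17 lower) and 15 with limma-voom, all 15 lower. Without PBS-cKOt 3, 4 and 5 they were 1 higher and 4 lower, and 3 to 14 when 1 library was left out, all lower; the cause was not tested. In control kidneys the 927 lower genes became 576 with no filter on low counts, where more genes were tested, and 1542 with 2 surrogate variables, whose cause was not tested. The mitochondrial difference passed without PBS-cKOt 1 and 3 (1.66 points, adjusted p = 0.0345, exact permutation test). Of 134 called genes named, 122 kept their call in every setting run and none changed sign. Adipoq, not called, turned to 1.13 without PBS-cKOt 3, 4 and 5, and the summed fat cell markers turned to a difference of 7.91 CPM without PBS-cKOt 1 and 3. With the replicate number as a block 1914 genes were called and 5 differed between genotypes, and no library correlated best with its own number. The 9 libraries per group limit what small differences can pass, and genes under about 1 CPM rest on few reads.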

Other observations

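Several genes outside the lists and the naming rule stood out and were chosen after their values were seen. Mgmt, the methyltransferase that removes alkyl groups from guanine in DNA, lay between 4.197 and 7.02 CPM (median 5.68) in PBS-cKOt and between 8.58 and 12.9 CPM (median 10.6) in STZ-cKOt, without overlap (log2 fold change 0.93 ± 0.10 SE, n = 9 each, edgeR adjusted p = 2.86e-08). It rose by 0.86 in control kidneys. The long noncoding RNA gene Trp53cor1 (lincRNA-p21), next to Cdkn1a, was barely detected in PBS-cKOt (median 0.0916 CPM) and had a median of 0.924 CPM in STZ-cKOt, without overlap. Ephx1, the microsomal epoxide hydrolase, rose by 1.17, the mitochondrial aldehyde dehydrogenase gene Aldh1b1 by 1.15 and the heparan sulfate 6-O-endosulfatase gene Sulf2 by 1.03, each without overlap and each also higher in control kidneys (1.10, 1.04 and 0.89).

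Lpl, the lipoprotein lipase that frees fatty acids from circulating triglyceride, lay between 1313 and 2050.4 CPM (median 1885) in PBS-cKOt and between 312.5 and 1150.0 CPM (median 917) in STZ-cKOt, without overlap (-1.02 ± 0.19 SE, edgeR adjusted p = 0.000299). In control kidneys it did not pass (-0.30 ± 0.19 SE, adjusted p = 0.321), and neither did the difference between genotypes (-0.73 ± 0.27 SE, edgeR adjusted p = 0.364). Aldh3b3 fell by 1.71, from a median of 2.48 to 0.728 CPM, without overlap.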
